A study of Mus musculus with 8 samples.

Results

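Collagen genes were followed in the dorsal skin of mouse embryos. Members were taken from the array's gene annotation as every gene whose single symbol is Col, a number, the letter a and a second number, and the rule left out Col17a1 and Col7a1. It gave 40 genes of the 18193 measured: 8 fibrillar, 7 cartilage, 8 basement membrane, 6 fibril-associated and 5 beaded filament collagens, and 6 of other types. The arrays came from wild-type dorsal skin at embryonic day 14.5 (E14.5, 2 arrays), E16.5 (3 arrays) and E18.5 (3 arrays). The stated purpose of the series was to follow gene expression while the epidermis differentiates. All groups were untreated and of one genotype, and the labels name no strain. The labels do not say whether the arrays of a stage came from separate embryos or litters, so p-values measure the spread between these arrays. Whole skin was profiled, so a lower signal from fewer cells of a type and from less RNA per cell cannot be told apart.

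Collagens are secreted or membrane-bound proteins in which 3 chains wind into a triple helix. In skin, fibroblasts of the dermis make the fibrils of type I and type III collagen that give it tensile strength, with type V collagen in the core of those fibrils. Type IV collagen forms the sheet-like network of basement membranes under the epidermis and around vessels, and type VI collagen forms beaded filaments between the fibrils. Before a fibril forms, the chains are hydroxylated and folded in the endoplasmic reticulum, trimmed at their ends outside the cell and crosslinked.

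The promoter windows of 3 members are shown because these genes were called higher at E18.5 than at E16.5, and Col4a1 and Col4a2 share theirs. Each window runs from 250 bases before to 50 bases after the annotated start, is 300 bases long and comes from RefSeq (build GRCm38.p6). A window was found for 31 of the 40 members. In the Col3a1 window (chr1:45311288-45311587, plus strand) and the Col1a2 window (chr6:4505368-4505667, plus strand) capitals mark the letters CCAAT or their reverse complement ATTGG, the CCAAT box that binds the factor NF-Y. In the Col4a2 window (chr8:11312555-11312854, plus strand) capitals mark the 78 bases that it shares with the window of Col4a1, which is read from the other strand.
Col3a1: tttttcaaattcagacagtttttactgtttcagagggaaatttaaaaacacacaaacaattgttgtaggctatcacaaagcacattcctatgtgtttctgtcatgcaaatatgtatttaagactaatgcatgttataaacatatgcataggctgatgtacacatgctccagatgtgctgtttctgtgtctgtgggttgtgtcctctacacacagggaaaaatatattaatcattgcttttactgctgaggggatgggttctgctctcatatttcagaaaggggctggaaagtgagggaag
Col1a2: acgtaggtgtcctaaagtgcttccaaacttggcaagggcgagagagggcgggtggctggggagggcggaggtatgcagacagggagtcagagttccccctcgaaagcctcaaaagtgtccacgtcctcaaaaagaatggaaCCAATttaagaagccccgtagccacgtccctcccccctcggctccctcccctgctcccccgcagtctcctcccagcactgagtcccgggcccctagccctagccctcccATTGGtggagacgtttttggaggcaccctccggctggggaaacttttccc
Col4a2: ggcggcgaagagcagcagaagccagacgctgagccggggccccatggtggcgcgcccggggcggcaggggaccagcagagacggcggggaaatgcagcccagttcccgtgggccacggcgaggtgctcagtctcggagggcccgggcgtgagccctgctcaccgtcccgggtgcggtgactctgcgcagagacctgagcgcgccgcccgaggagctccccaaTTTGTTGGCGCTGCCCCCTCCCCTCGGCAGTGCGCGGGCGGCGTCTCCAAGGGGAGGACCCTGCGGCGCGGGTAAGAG
The Col1a2 window held 2 matches and the Col3a1 window 0. CCAAT or ATTGG, counted on both strands, was found in the first window of 10 of the 31 members, and in 37.4% of the 32851 windows of all genes in the same table. A match is only a run of letters and a window without one says nothing about the factor.

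There are 7 pairs of members next to each other among the protein-coding genes of that build: Col4a1 and Col4a2 on chromosome 8, Col4a4 and Col4a3 on chromosome 1, Col4a6 and Col4a5 on chromosome X, Col6a2 and Col6a1 on chromosome 10, Col6a5 and Col6a4 on chromosome 9, and Col3a1 with Col5a2 and Col9a1 with Col19a1 on chromosome 1. Neighbours did not always share a call. Col4a1 and Col4a2 were both higher at E18.5 than at E16.5, whereas Col3a1 was higher and Col5a2 was not called.

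Values are signal intensities on a linear scale, and changes are differences of log2(signal + 16), which understate the change of dim genes. A gene was represented by its brightest probeset (a set of short probes for 1 transcript). Background on each array was the 95th percentile of 80 probesets for olfactory and vomeronasal receptor genes. It was 43.9 and 45.7 at E14.5, lay between 33.6 and 53.2 at E16.5 and was higher at E18.5, between 62.2 and 92.2. The test was limma over all 18193 genes, and a call needed a Benjamini-Hochberg adjusted p below 0.05. Every epidermis marker and every fibroblast marker listed (8 each) was above background on all 8 arrays. The E14.5 arrays stood apart: the ratio of 3′ to 5′ Actb signal was 6.49 and 6.91 at E14.5, between 1.11 and 1.14 at E16.5 and between 1.35 and 1.37 at E18.5. The same ratio for Gapdh was 2.96 and 3.03 at E14.5 and between 0.692 and 0.869 on the later arrays. The highest signal on an array was 59929 and 59428 at E14.5, lay between 27950 and 30874 on the E16.5 arrays and between 38570 and 39825 on the E18.5 arrays. Stage and array preparation cannot be told apart in any difference from E14.5.

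Of the 40 collagen genes, 35 were above background on at least 2 arrays. Col10a1, Col4a3 and Col6a5 were above it on no array. The members at the top of the signal range were the chains of the interstitial matrix: Col1a1, Col1a2, Col3a1, Col5a2, Col6a1, Col6a2 and Col6a3, together with Col4a1, belonged to the brightest 1% of genes (182 genes). Col3a1 was the brightest of all genes on the third E18.5 array. Signals of different probesets are not on a common scale, so these ranks place each probeset on the array and do not order transcripts.

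**Figure D1:**
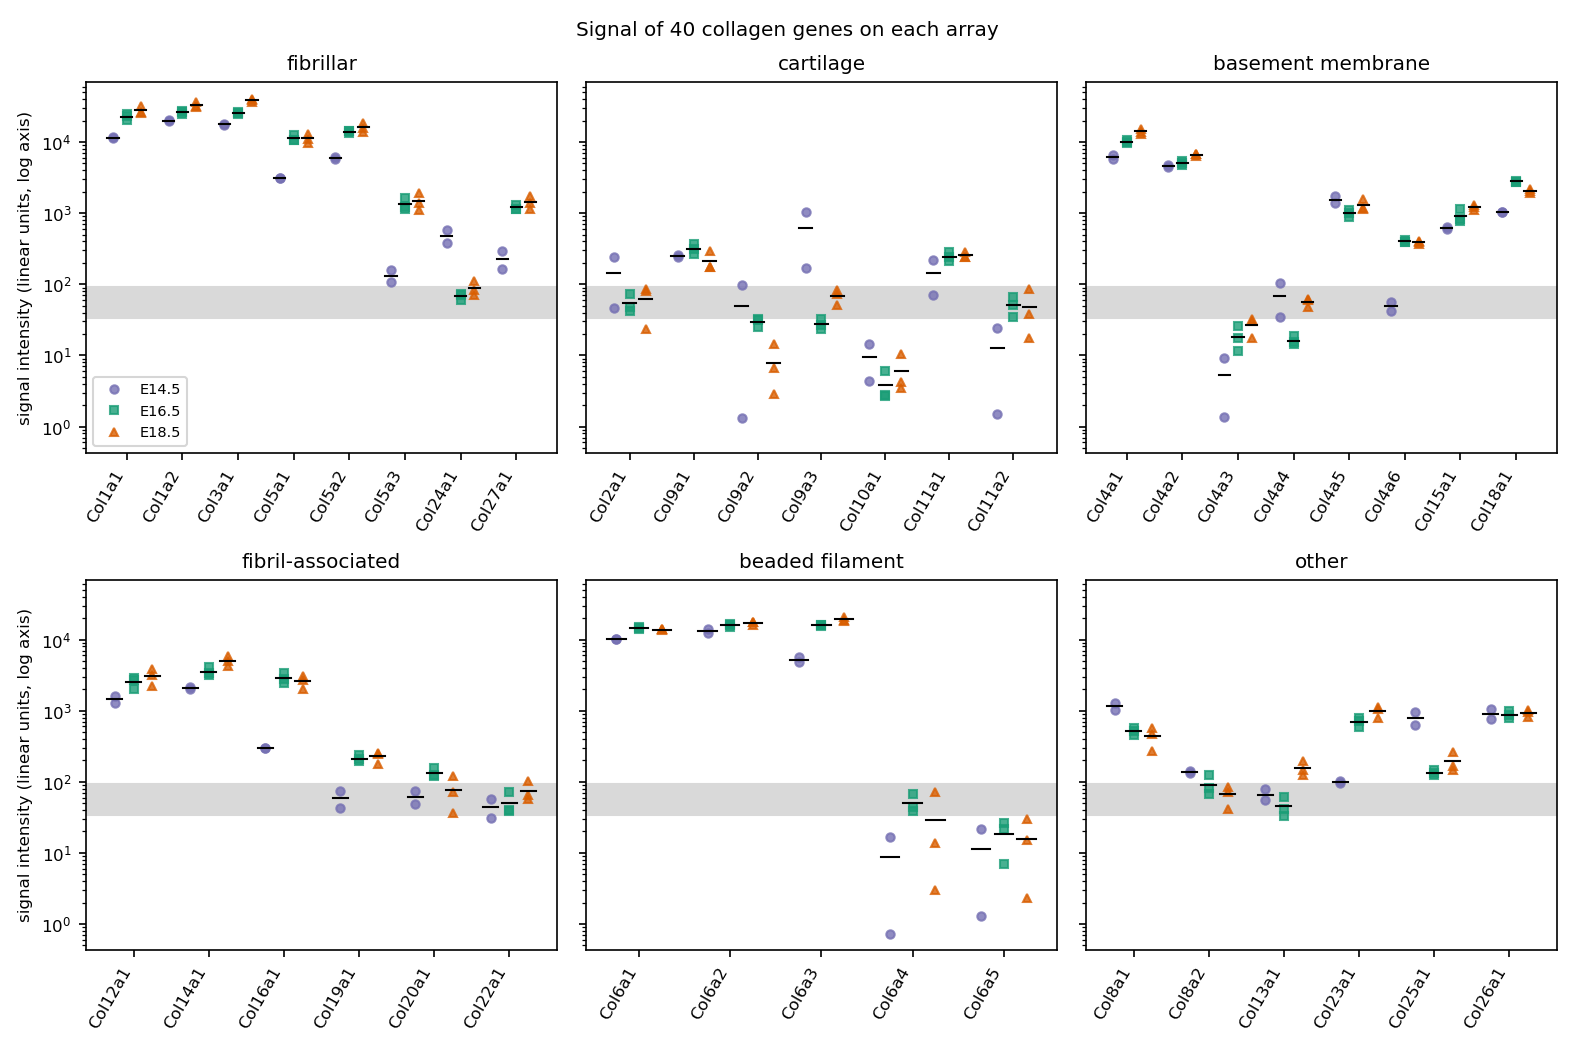
Signal intensity (log axis, linear units) of 40 collagen genes on each of 8 arrays, by type and by stage, with a bar at each stage's mean and a grey band over the range of array backgrounds (33.6 to 92.2). The fibrillar, type IV and type VI chains that the text places at the top of the signal range lie far above the band. Other chains of these types lie in or below it on some or all arrays, and most cartilage collagens lie in or near it.

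Between E16.5 and E18.5 most collagen genes were not called. At E18.5, 6 were higher (Col1a2, Col3a1, Col4a1, Col4a2, Col14a1 and Col13a1), 1 was lower (Col18a1) and 33 were not called. Over all genes 7.28% were called higher and 5.58% lower, 12.9% either way. The median change of the 40 members was 0.18 (log2), against 0.12 over all genes, and in the brightest 1% of genes it was 0.29. The arrays of the 2 stages did not overlap for 16 of the 40 members, where 38.6% of all genes did not overlap. The calls depended on the scaling: after quantile normalization 1 collagen gene was called higher and 2 lower, and after median centring 2 were higher and 1 lower. Leaving out any 1 of the 3 E16.5 arrays left 2 higher and 0 lower, and leaving out the third E18.5 array gave 3 lower.

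**Figure D2:**
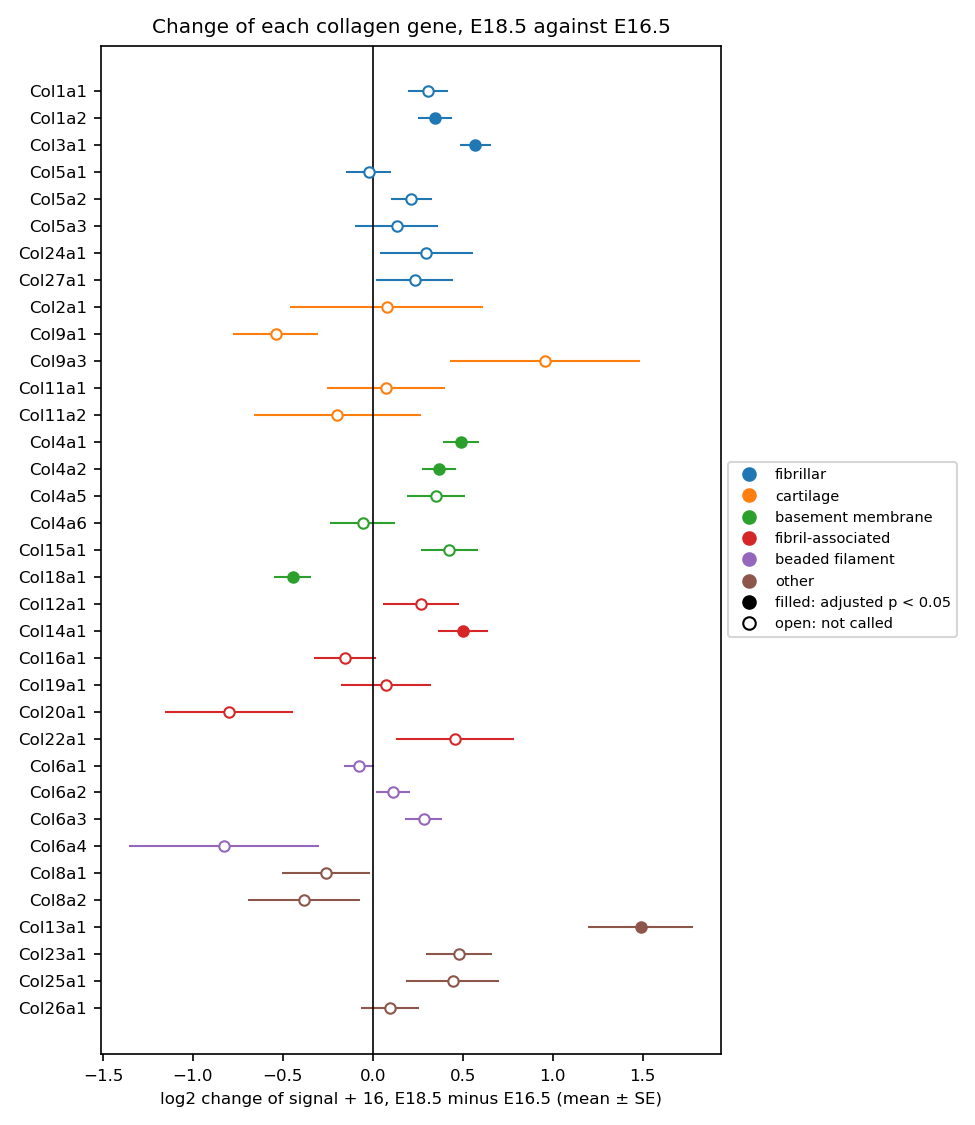
Change of the 35 collagen genes above background on at least 2 arrays, E18.5 minus E16.5, on the log2(signal + 16) scale with the standard error, coloured by type. The 7 filled points passed the adjusted p threshold of 0.05, and Col18a1 is the filled point left of 0.

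Type III collagen, the fibrillar collagen prominent in fetal dermis, showed the clearest difference among the fibrillar genes. Col3a1 had signals of 36631, 38784 and 39825 at E18.5, against 25008, 26714 and 25873 at E16.5. All E18.5 arrays lay above all E16.5 arrays, and the change was 0.57 ± 0.09 (SE, log2), a 1.48-fold rise (adjusted p = 0.00358). The call remained under each of 16 alternatives except quantile normalization, where the change was 0.07 (adjusted p = 0.578). Col1a2, the second chain of type I collagen, had 31076, 32396 and 36161 at E18.5, against 24742, 27278 and 26401 at E16.5, a rise of 0.34 ± 0.10 (adjusted p = 0.0413). That call was lost in 13 of the 16 alternatives, and after quantile normalization the difference was -0.11. Both genes lay at the top of the signal range: on the E16.5 arrays Col3a1 ranked 4, 6 and 5 and Col1a2 ranked 7, 2 and 4. The highest signal of an array lay between 27950 and 30874 at E16.5 and between 38570 and 39825 at E18.5. The part of that shift in these differences was not tested. Col1a1, the main chain of type I collagen, had 26738, 25804 and 31868 at E18.5, against 20578, 24566 and 22954 at E16.5, a difference of 0.31 that did not pass the test (adjusted p = 0.0987).

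The other probeset of Col1a1 went the other way. Its signals were 2633, 2882 and 3331 at E18.5, against 5158, 4530.1 and 5210 at E16.5, a fall of 0.75 on the log2 scale (adjusted p = 0.00355 over all probesets). The direction of Col1a1 therefore depends on which probeset is read. Col3a1's other probeset had 13645, 15357 and 16902 at E18.5, against 11177, 12985 and 10720 at E16.5, and was not called.

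The chains of type V collagen, which sets the diameter of type I fibrils, were not called between E16.5 and E18.5. Col5a1 averaged 11217 ± 1784 at E18.5 and 11325 ± 957 at E16.5 (SD, n = 3 each). Col5a2 averaged 16125 ± 2373 at E18.5 and 13825 ± 516 at E16.5. Col5a3 averaged 1478 ± 430 at E18.5 and 1326 ± 255 at E16.5, and the arrays of the 2 stages overlapped for all 3 genes. Neither of the minor fibrillar genes was called, with changes of 0.23 ± 0.21 for Col27a1 and 0.30 ± 0.26 for Col24a1 (SE, log2).

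Against E14.5 the fibrillar genes differed far more. In E16.5 against E14.5, 18 of the 40 collagen genes were called higher and 6 lower, where 37.1% of all genes were higher and 20.8% lower (57.9% either way). The median change was 0.53 for the members and 0.29 for all genes, and 32 members did not overlap, where 74.1% of all genes did not. Median centring moved the median of all genes to -0.55 and gave 10 collagen genes higher and 15 lower, and quantile normalization gave 18 and 9. Of the 8 fibrillar genes 7 were higher at E16.5 and 1 was lower, and after median centring the differences of Col1a2 and Col3a1 were below 0.

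The changes of 3 fibrillar genes were large and held under all 16 alternatives. Col5a3, the third and least widespread chain of type V, had 1617, 1143 and 1219 at E16.5, against 159 and 106 at E14.5, a rise of 3.18 ± 0.26 (9.06-fold, adjusted p = 2.41e-06). Col27a1, a fibrillar collagen best known from cartilage, had 1307, 1155 and 1146 at E16.5, against 292 and 164 at E14.5, a rise of 2.37 ± 0.24 (adjusted p = 1.11e-05), and its other probeset rose by 0.55. Col5a1 had 12429, 10710.2 and 10837 at E16.5, against 3089 and 3154 at E14.5, a rise of 1.85 ± 0.14 (adjusted p = 1.43e-06). The 3 Col5a1 probesets were all called higher, by 1.46 to 2.35.

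Col24a1, a minor fibrillar collagen, went against the rest of its type. Its signals were 73.9, 59.5 and 70.9 at E16.5, against 383 and 583 at E14.5, a fall of 2.54 ± 0.29 on the log2 scale (adjusted p = 2.65e-05). At E18.5 they were 71.6, 82.7 and 111, and 2 of those 3 arrays were above background. Both E14.5 arrays exceeded every later array, and the fall remained called in all 16 alternatives.

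For 4 other fibrillar genes the direction from E14.5 depended on the probeset or the scaling. Col1a1 averaged 22699 ± 2006 at E16.5 (n = 3) and 11546 ± 315 at E14.5 (n = 2), a rise of 0.97 ± 0.12, but its other probeset had 5158, 4530.1 and 5210 at E16.5 against 18491 and 18132 at E14.5, a fall of 1.88 on the log2 scale. Col3a1 averaged 25865 ± 853 at E16.5 and 17676 ± 455 at E14.5, a rise of 0.55 ± 0.10 that turned to -0.30 after median centring, and its other probeset fell by 0.60 on the log2 scale. Col5a2 averaged 13825 ± 516 at E16.5 and 5994 ± 199 at E14.5, a rise of 1.20 ± 0.13, while its other probeset fell by 0.88 on the log2 scale. Col1a2 averaged 26140.2 ± 1288 at E16.5 and 20064 ± 422 at E14.5, a rise of 0.38 ± 0.11 that turned to -0.47 after median centring. Of its other probesets 1 rose by 2.56 and 1 was not called (0.21).

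In E16.5 against E14.5, 7 of the 27 members with 2 or more probesets had 1 called higher and 1 called lower: Col1a1, Col3a1, Col5a2, Col4a5, Col12a1, Col19a1 and Col8a1. For Col12a1 the probeset called lower was below background on all arrays. Between E16.5 and E18.5 no member had probesets called in opposite directions. The 3′ to 5′ ratios given above differ between the same stages, and their part in this was not tested.

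**Figure D3:**
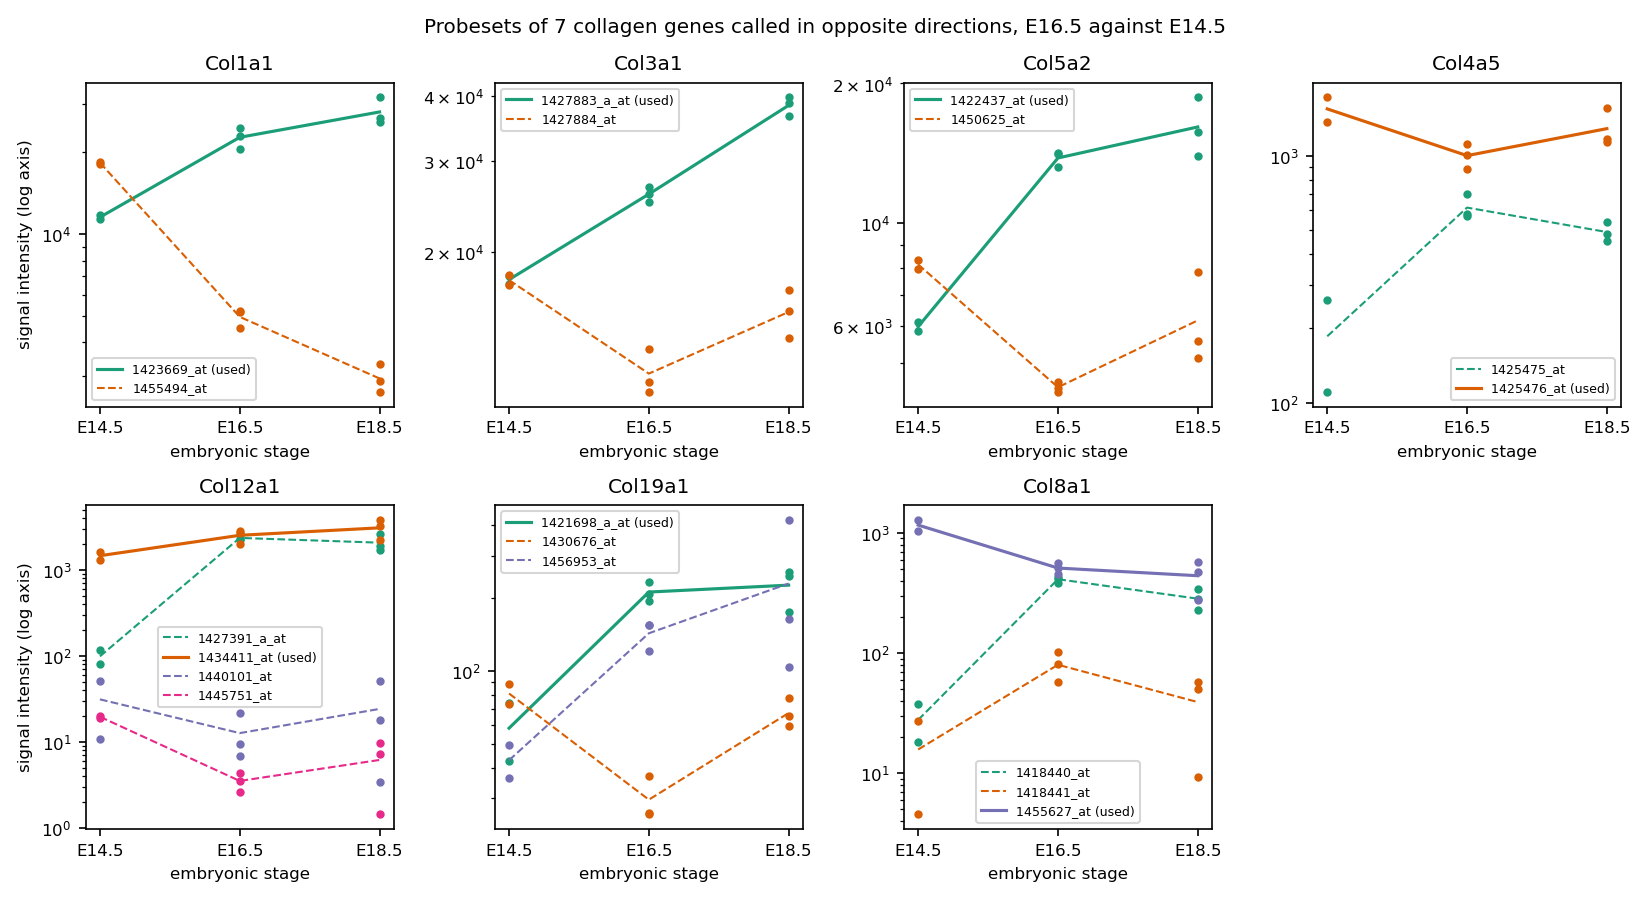
Signal intensity (log axis) at each stage for every probeset of 7 collagen genes whose probesets were called in opposite directions in E16.5 against E14.5. Points are arrays, lines join stage means and the solid line is the probeset used; for Col1a1 the used probeset averaged 22699 at E16.5 and 11546 at E14.5 while the dashed one fell by 1.88 on the log2 scale.

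Basement membrane genes divided between E16.5 and E18.5. The ubiquitous type IV chains, which are made as a pair from neighbouring genes, were both higher at E18.5, and Col18a1 was lower. Col4a1 had 15313, 13026 and 13900.2 at E18.5, against 9889, 9591 and 10590 at E16.5, a rise of 0.49 ± 0.10 (1.40-fold, adjusted p = 0.0135). Col4a2 had 6678, 6283 and 6741 at E18.5, against 4820, 5011 and 5451 at E16.5, a rise of 0.37 ± 0.09 (1.29-fold, adjusted p = 0.0307). In both genes every E18.5 array lay above every E16.5 array. Each call was lost in 6 of the 16 alternatives, both scalings among them, and the adjusted p of Col4a1 over the alternatives ran up to 0.119 and that of Col4a2 up to 0.286.

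Col18a1, a basement membrane collagen whose cleaved end is endostatin, was the only collagen gene called lower. Its signals were 2182, 1890.3 and 2072 at E18.5, against 2777, 2719 and 2874 at E16.5, a fall of 0.44 ± 0.10 on the log2 scale (1.36-fold, adjusted p = 0.0203). Its second probeset had 1704, 1677 and 1739 at E18.5, against 2341, 2557 and 2283 at E16.5, and was called lower too, by 0.48 on the log2 scale. The fall was called under both scalings, and leaving out any 1 E16.5 array took the adjusted p to between 0.0730 and 0.104. Col15a1, the related collagen of vessel and muscle basement membranes, averaged 1212 ± 107 at E18.5 and 910 ± 197 at E16.5 and was not called.

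Against E14.5 the basement membrane genes moved in both directions. At E16.5, 4 of the 8 were higher and 2 lower, where 37.1% of all genes were higher and 20.8% lower. Col4a6, a chain of the epidermal basement membrane, had 416, 394 and 399 at E16.5, against 56.6 and 42.5 at E14.5, where 1 of the 2 arrays was above background. The rise was at least 6.26-fold with the dim array set to its background (2.69 ± 0.20 on the log2 scale, adjusted p = 1.43e-06), and at E18.5 the signals were between 364 and 408. Its other probeset, above background on all 8 arrays, was not called (0.34). Its partner Col4a5 had 1113, 1006 and 882 at E16.5, against 1725 and 1369 at E14.5, a fall of 0.62 ± 0.18 on the log2 scale (adjusted p = 0.0131), but its other probeset rose by 1.75. The 2 partner genes thus differed in direction on the probesets used, and for Col4a5 the probesets themselves disagreed.

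Col18a1 averaged 2790 ± 78.1 at E16.5 and 1036 ± 17.3 at E14.5, a rise of 1.42 ± 0.11 that held in all 16 alternatives and on both probesets. Together with the later fall, its signal was highest at E16.5, with stage means of 1036 (E14.5), 2790 (E16.5) and 2048 (E18.5). Col4a1 rose by 0.70 ± 0.11 between E14.5 and E16.5 and Col15a1 by 0.51 ± 0.18, and both turned after median centring, to -0.15 and -0.34. The other probeset of Col4a1 rose by 2.16. Col4a2 averaged 5094 ± 324 at E16.5 and 4600.2 ± 192 at E14.5 and was not called. Col4a4, a chain known from the kidney glomerulus, had 18.6, 14.3 and 15.6 at E16.5, all below background, against 103 and 34.5 at E14.5, where 1 of 2 arrays was above it. It was called lower (at least 1.33-fold, adjusted p = 0.0152), and without the first E14.5 array the call was lost (adjusted p = 0.144).

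Fibril-associated collagens coat the surface of type I fibrils or link them to other structures. Col14a1, found on fibrils of the dermis and tendon, had 4276, 4942 and 5813 at E18.5, against 4083, 3364 and 3133 at E16.5, a rise of 0.50 ± 0.14 (1.42-fold, adjusted p = 0.0420). The lowest E18.5 array was just above the highest E16.5 array. A second probeset was called higher too, by 0.53, but the call was lost in 11 of the 16 alternatives. Col12a1, its close relative, averaged 3078 ± 821 at E18.5 and 2520.2 ± 453 at E16.5 and was not called. The remaining 4 genes of the type were not called either.

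Col16a1, which sits near the dermal-epidermal junction and on thin fibrils, had the largest rise between E14.5 and E16.5 on the probesets used for the 40 genes. Its signals were 2820, 3350.2 and 2480.1 at E16.5, against 298 and 299 at E14.5, a rise of 3.19 ± 0.19 (9.15-fold, adjusted p = 3.53e-07) that held in all 16 alternatives. It has 1 probeset, and other probesets of Col12a1 (4.39), Col14a1 (3.46) and Col8a1 (3.32) rose more. At E18.5 it averaged 2614 ± 562. Col19a1, first described in muscle, had 195, 234 and 208 at E16.5, against 42.8 and 73.8 at E14.5, at least 3.11-fold higher with the dim array at its background (adjusted p = 0.000484), but a weak second probeset was called lower. Col12a1 and Col14a1 rose by 0.78 ± 0.23 and 0.77 ± 0.16, and both differences turned slightly negative after median centring (-0.07 and -0.08). Other probesets of both genes rose more, by 4.39 for Col12a1 and by 2.16 and 3.46 for Col14a1. Col20a1 and Col22a1, a collagen of muscle-tendon junctions, were not called on the probesets used. Another Col20a1 probeset was called higher, by 2.17, and another of Col22a1 was called lower, by 1.96 on the log2 scale.

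Of the beaded filament genes none was called between E16.5 and E18.5. Col6a1 averaged 13779 ± 236 at E18.5 and 14546 ± 286 at E16.5. Col6a2, which lies beside it, averaged 17103 ± 909 at E18.5 and 15817 ± 785 at E16.5. Col6a3, the large chain of the filament, had 18177, 18987 and 20691 at E18.5, against 15284, 16195 and 16067 at E16.5. The Col6a3 arrays of the 2 stages did not overlap, but the difference of 0.28 ± 0.10 did not pass the test (adjusted p = 0.0940).

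Col6a3 was the type VI chain that differed most from E14.5. Its signals of 15284, 16195 and 16067 at E16.5 stood against 4791 and 5678 at E14.5, a rise of 1.60 ± 0.11 (3.03-fold, adjusted p = 8.89e-07) that held in all 16 alternatives. Col6a1 averaged 14546 ± 286 at E16.5 and 10212 ± 78.2 at E14.5, a rise of 0.51 ± 0.09 that turned to -0.34 after median centring. Col6a2 was not called (0.27 ± 0.11), while its second probeset rose by 1.38. Col6a4 was above background on 3 arrays, all at E16.5, and Col6a5 on none.

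Among the other types are the transmembrane collagens, which sit in the plasma membrane. Col13a1, known from the neuromuscular junction, had the largest called difference between E16.5 and E18.5. Its signals were 147, 194 and 124 at E18.5, against 33.1, 60.7 and 41.5 at E16.5, where 2 of the 3 arrays were above background. The rise was at least 2.65-fold with the dim array at its background (1.49 ± 0.29 on the log2 scale, adjusted p = 0.0106), and it was called under both scalings. Without the first or the third E16.5 array the adjusted p was 0.0519 and 0.0550. At E14.5 the gene had 77.9 and 54.6, so that the E14.5 and E16.5 arrays overlapped and only the E18.5 arrays stood above both. The call of E18.5 against E14.5 (1.05) was lost after quantile normalization (adjusted p = 0.933) and after median centring (adjusted p = 0.949). It was also lost without the second E14.5 or the second E18.5 array.

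Col23a1, a second transmembrane collagen, had 584, 788 and 719 at E16.5, against 95.6 and 104 at E14.5, a rise of 2.61 ± 0.20 (6.11-fold, adjusted p = 1.75e-06), and all 3 of its probesets rose. It averaged 980.1 ± 171 at E18.5 and was not called against E16.5. Col25a1, another of them with a part in motor innervation of muscle, fell: it had 123, 134 and 144 at E16.5, against 620.4 and 972 at E14.5, a fall of 2.41 ± 0.29 on the log2 scale (adjusted p = 3.89e-05). With the mean of its probesets the Col25a1 difference was -0.81 and not called (adjusted p = 0.104), and its other probeset, above background on 2 arrays, was not called (0.80).

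Col8a1 and Col8a2, which form the hexagonal network of the corneal Descemet membrane and occur around vessels, were not called between E16.5 and E18.5. Col8a1 averaged 511 ± 52.1 at E16.5 and 1163 ± 178 at E14.5, a fall of 1.16 ± 0.27 on the log2 scale, but its second probeset had 434, 386 and 417 at E16.5, against 37.4 and 18.2 at E14.5, a rise of 3.32. With the mean of its probesets the difference was 1.28. Col26a1 averaged 909 ± 208 (E14.5), 874 ± 98.8 (E16.5) and 936 ± 106 (E18.5), and was called in no comparison on the probeset used. Its other probeset had 63.8, 91.4 and 89.2 at E16.5, against 2.16 and 4.36 at E14.5. At E18.5 that probeset had 21.3, 9.74 and 53.4, all below background. It was called higher than at E14.5 at both later stages.

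Cartilage collagens were low in this skin. Col2a1 is the main collagen of cartilage, the 3 type IX chains and the 2 type XI chains assemble with it, and Col10a1 marks hypertrophic chondrocytes. None of the 7 was called between E16.5 and E18.5. Col9a1, Col11a1 and no other member of the type were above background on all 8 arrays. Col9a1 averaged 215 ± 69.2 at E18.5 and 314 ± 51.8 at E16.5, and Col11a1 averaged 256 ± 22.9 at E18.5 and 244 ± 34.5 at E16.5, with overlapping arrays in both. In E16.5 against E14.5 this Col9a1 probeset was not called (0.28). The other Col9a1 probeset, above background on 6 arrays, rose by 2.58 (adjusted p = 1.9e-05 over all probesets).

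The first E14.5 array carried more cartilage collagen signal than the second. Col9a3 had 1050.1 on the first and 168 on the second, Col2a1 had 244 and 46.9, Col9a2 had 98.5 and 1.30, and Col11a1 had 216 and 70.1. At E16.5 Col9a3 had 26.9, 32.9 and 23.4, all below background, and it was called lower than at E14.5, at least 7.58-fold (adjusted p = 0.000636). Without the first E14.5 array the fall was 2.08 on the log2 scale and still called, and over the 8 arrays left out in turn the adjusted p ran up to 0.00288. The second Col9a3 probeset, with 24.6, 39.5 and 48.6 at E16.5 against 159.8 and 21.3 at E14.5, was not called.

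Other cartilage genes gave a mixed picture. Hapln1, which links aggrecan to hyaluronan, was below background on all later arrays, against 533 and 237 at E14.5. Acan, the aggrecan gene, had 27.4 and 72.4 at E14.5, and Matn1 and Epyc were below background on all 8 arrays. The summed signal of the 12 cartilage markers was 1772 and 1386 at E14.5, lay between 959 and 1060 on the E16.5 arrays and between 1482 and 1784 on the E18.5 arrays, with most of it from Sox9 and Sox6, which other skin cells also express. Their part in the cartilage collagen signal was not tested.

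**Figure D4:**
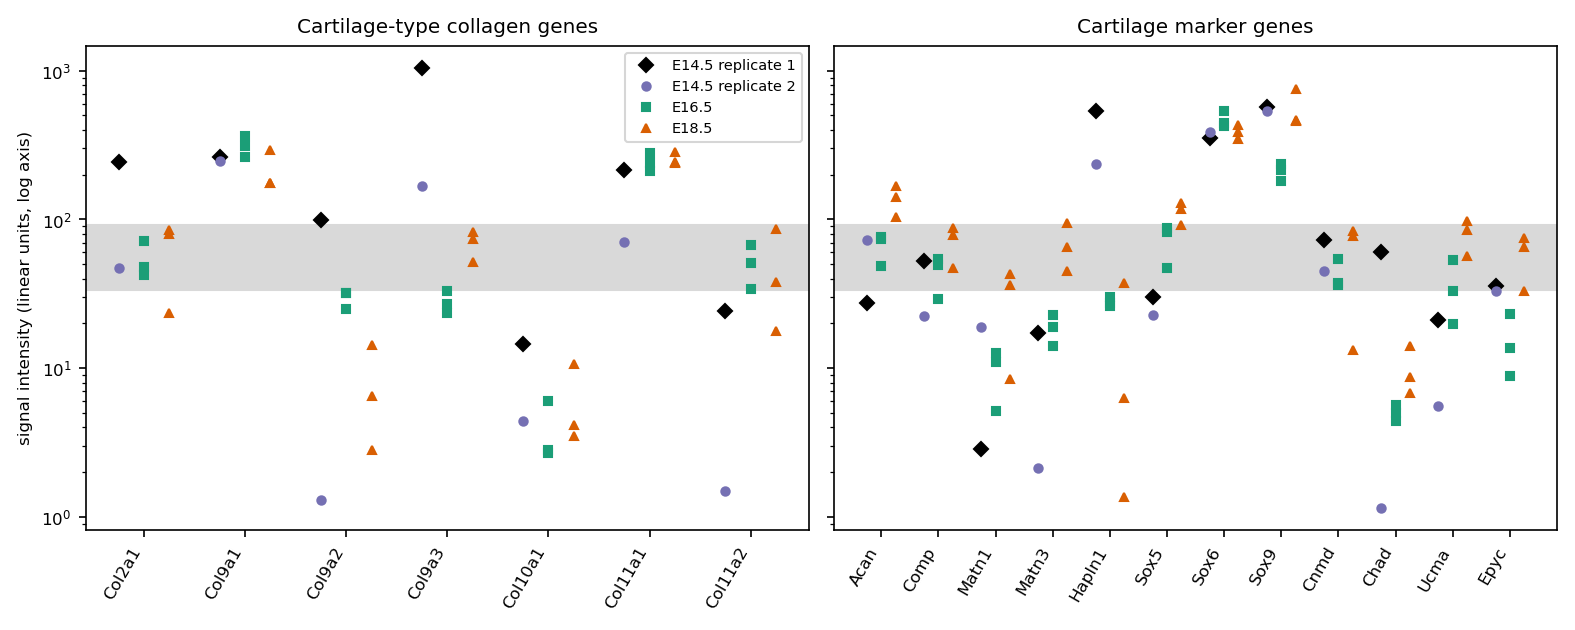
Signal intensity (log axis) of 7 cartilage-type collagen genes and 12 cartilage marker genes on each array, with the range of array backgrounds in grey and the 2 E14.5 arrays drawn apart. On the first E14.5 array Col9a3 read 1050.1 and Hapln1 533, against 168 and 237 on the second.

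Across the whole span, E18.5 against E14.5, 23 collagen genes were called higher and 5 lower, where 41.7% of all genes were higher and 19.5% lower (61.2% either way). The arrays did not overlap for 29 members, where 70.6% of all genes did not. This comparison shares its arrays with the other 2. Median centring gave 8 higher and 15 lower. The 5 lower genes were Col24a1, Col9a3, Col8a1, Col8a2 and Col25a1. Of the lower calls Col24a1 alone held in all alternatives. Col9a3, Col25a1 and Col8a1 lost theirs with the mean of all probesets, where Col8a1 turned to 0.71, and Col8a2 was lost in 5 of the 16. Among the higher calls 8 held in all alternatives: Col5a1, Col5a2, Col5a3, Col27a1, Col4a6, Col16a1, Col6a3 and Col23a1. However, the other Col5a2 probeset was called lower (-0.42), and those of Col27a1 (0.39) and Col4a6 (0.54) were not called. Col1a1, Col20a1, Col5a2 and Col8a1 each had probesets called in opposite directions over this span. The other Col1a1 probeset fell by 2.63 on the log2 scale, and the Col20a1 probeset called lower was below background on all arrays. Col11a1 was called higher with 241, 245 and 283 at E18.5, against 216 and 70.1 at E14.5, but its difference was -0.01 after quantile normalization and -0.08 after median centring. That call remained without the first E14.5 array and was lost without any 1 of the other 7. Col4a3 was called too, although it was below background on all 8 arrays, so it has no fold change here.

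The change over the second interval differed from that over the first for 19 genes, tested as a contrast of its own. For 6 the call was a more positive second interval and for 13 a more negative one, where 17.6% and 27.6% of all genes were (45.2% either way). The 13 were Col1a1, Col5a1, Col5a2, Col5a3, Col27a1, Col4a6, Col18a1, Col16a1, Col19a1, Col20a1, Col6a1, Col6a3 and Col23a1, led by Col16a1 at -3.35 ± 0.31 and Col5a3 at -3.05 ± 0.42 (SE, log2). The 6 were Col24a1, Col9a3, Col4a4, Col4a5, Col13a1 and Col25a1. Another probeset was called the other way for Col1a1 (1.13), Col5a2 (1.33), Col19a1 (1.97, a weak probeset) and Col4a5 (-2.07). For Col3a1 the 2 intervals were close (0.57 ± 0.09 in the second and 0.55 ± 0.10 in the first), and their difference was 0.02 ± 0.16. That difference was -0.87 after quantile normalization and 0.70 after median centring.

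The genes that modify, trim, degrade and bind collagen were counted from lists of known members. All counts between E16.5 and E18.5 stand beside 7.28% of all genes called higher and 5.58% called lower. Here 0 of 19 genes for procollagen modification and folding were higher and 3 were lower. Creb3l1, a transcription factor that activates collagen genes in osteoblasts, had 929, 777 and 1121 at E18.5, against 1987, 1968 and 1594 at E16.5, a fall of 0.97 ± 0.16 on the log2 scale (adjusted p = 0.00547). Plod2, the lysyl hydroxylase of the collagen ends, had 552, 508 and 562 at E18.5, against 1075, 898 and 1102 at E16.5, a fall of 0.90 ± 0.16 on the log2 scale (adjusted p = 0.00794). Its other probeset was not called, and the call was lost with the mean of both and without the third E16.5 array. The remaining gene was P3h3, a prolyl hydroxylase family member.

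Of 13 genes for processing and crosslinking, 5 were higher at E18.5 and 0 lower. Pcolce, the enhancer of the protease that removes the carboxyl propeptide, had 13065, 9781 and 13429 at E18.5, against 6336, 5839 and 5190 at E16.5, a rise of 1.05 ± 0.14 (2.07-fold, adjusted p = 0.00178) that held in all 16 alternatives. Its other probeset was not called. Pcolce2, its paralog, had 190, 134 and 81.3 at E18.5, against 59.6, 13.0 and 46.7 at E16.5 (at least 2.09-fold, adjusted p = 0.0439). The signal of 81.3 was just above the background of its array, 81.0. The Pcolce2 call was lost in 10 of the 16 alternatives, both scalings among them. Tll1, a protease of the same family as Bmp1, the crosslinking enzyme gene Loxl1 and the collagen-binding protein gene Sparc were the other 3.

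In the other lists of E18.5 against E16.5 the calls were few or mixed. Of 14 degradation and uptake genes 2 were higher and 2 lower. Mmp14, a membrane-bound collagenase, averaged 5427 ± 742 at E18.5 and 3225 ± 222 at E16.5, a rise of 0.74 ± 0.13. Timp2, an inhibitor of such proteases, rose by 0.42 ± 0.10, while Mmp16 fell by 1.20 ± 0.33 and the prolidase gene Pepd by 0.68 ± 0.16 on the log2 scale. The Timp2 call was lost in 6 of the 16 alternatives, that of Mmp16 in 7 and that of Pepd in 4, and Mmp14 held in all. None of the other probesets of Mmp14 (0.47 and 0.17), Timp2 or Mmp16 was called. Of 9 receptors 1 was higher, Ddr1, a collagen-activated kinase of epithelia, which averaged 5363 ± 1568 at E18.5 and 769 ± 230.5 at E16.5, a rise of 2.78 ± 0.25 (adjusted p = 0.000375). Of its other 7 probesets 1 was called higher and 0 lower. Of 15 basement membrane partners 4 were higher and 0 lower, with the laminin chain genes Lamc3 (1.27 ± 0.33) and Lamb2 (0.72 ± 0.16) changing most. The Lamc3 call was lost in 9 of the 16 alternatives, both scalings among them, and that of Lamb2 without any 1 of the 3 E16.5 arrays.

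Between E14.5 and E16.5 more genes of the same lists were called, as were more of all genes (37.1% higher and 20.8% lower). Of 19 modification genes 13 were higher at E16.5 and 3 lower, with a list median of 1.63, beside 0.53 for the collagen genes and 0.29 for all genes. Plod3, a lysyl hydroxylase that also glycosylates collagen, had 1635, 1485 and 1561 at E16.5, against 113 and 101 at E14.5, a rise of 3.68 ± 0.18. P4ha2, a subunit of the prolyl hydroxylase that stabilises the helix, rose by 3.06 ± 0.17. P3h2 and P3h1, which hydroxylate other prolines, fell by 1.41 and 1.33 on the log2 scale, and a second P3h1 probeset rose by 3.06. Of 13 processing genes 4 were higher and 2 lower, with Bmp1, the carboxyl propeptide protease (2.80 ± 0.20), and Loxl1 (2.77 ± 0.20) highest, and with Lox (-0.85 ± 0.25) and Sparc (-0.50 ± 0.13) lower. The Lox call was lost in 4 of the 16 alternatives: quantile normalization, the mean of all probesets, and without either E14.5 array.

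Of 14 degradation genes 9 were higher at E16.5 and 0 lower, led by Mmp14 (3.40 ± 0.15) and Pepd (2.44 ± 0.18). Of the 9 receptors 4 were higher and 1 lower: Itgb1, the shared beta chain of collagen-binding integrins, rose by 2.87 ± 0.13, the adhesion receptor Adgrg1 rose by 1.85 ± 0.28 and Ddr1 fell by 2.83 ± 0.28 on the log2 scale. Of 15 basement membrane partners 11 were higher and 2 lower, led by Lamc3 (at least 3.38-fold) and Lama5 (2.86 ± 0.25), with Agrn (-1.28 ± 0.15) and Nid1 (-0.64 ± 0.13) lower. Sparc, Agrn, Nid1, Ddr1, Itgb1 and Loxl1 each had another probeset called the other way over this interval. The calls of Sparc and Nid1 were lost after quantile normalization, and that of Ddr1 with the mean of all probesets.

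**Figure D5:**
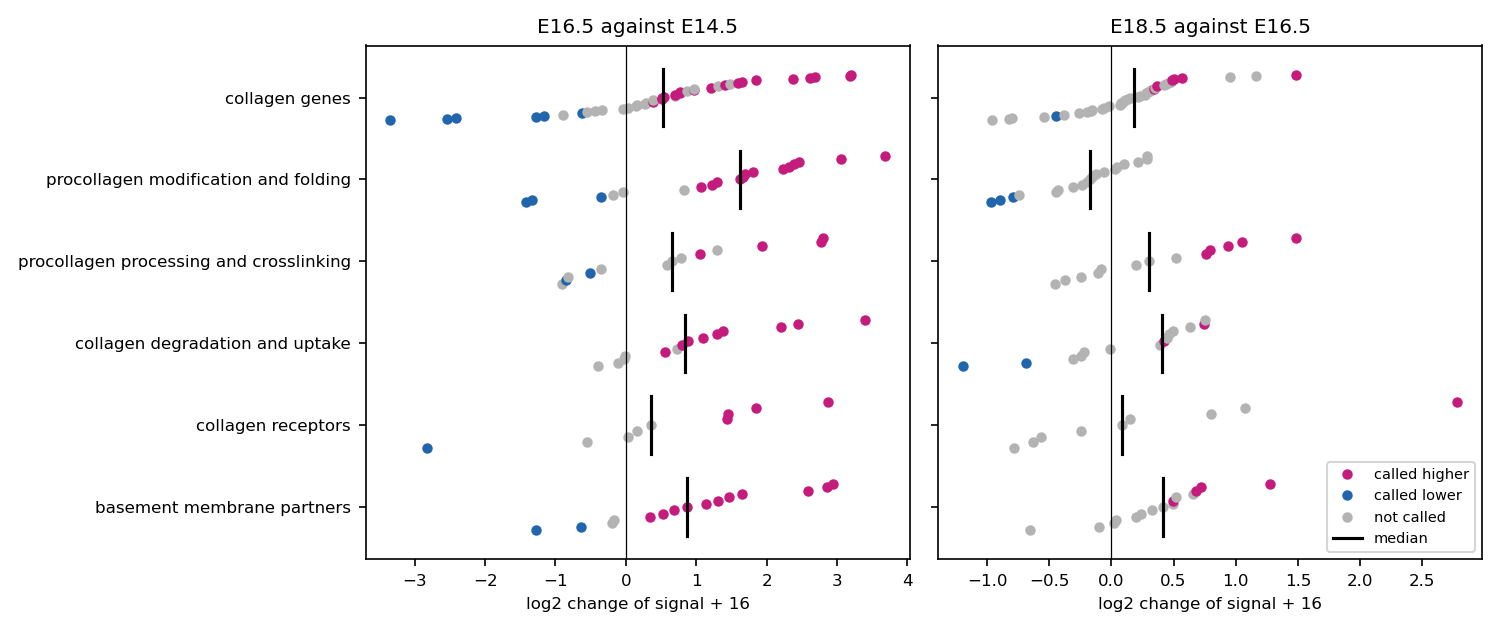
Change of each gene (points) of 40 collagen genes and 5 related lists on the log2(signal + 16) scale, E16.5 against E14.5 on the left and E18.5 against E16.5 on the right, with the list medians as bars. Modification genes have a median of 1.63 in the left panel and -0.17 in the right one, and collagen genes 0.53 and 0.18.

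Markers of other cell types moved with some of these comparisons. Their counts between E16.5 and E18.5 stand beside 7.28% of all genes called higher and 5.58% called lower. The summed signal of 8 fibroblast markers was 56640, 73502 and 82769 at E18.5, against 71775, 69353 and 68707 at E16.5, so the stages overlapped, and 1 of the 8 was called higher and 0 lower. The first E18.5 array was the lowest of the 6 in this sum. All 6 adipocyte markers were higher at E18.5, with sums of 32290, 36628 and 29088 at E18.5, against 9726, 7543 and 7760 at E16.5. The 10 skeletal muscle markers summed to 119246, 96857 and 149430 at E18.5, against 79945, 86070 and 89013 at E16.5, with 1 called higher and 2 lower. Sums of 8 endothelial markers were 6276, 6329 and 6335 at E18.5, against 7790, 7076 and 8353 at E16.5, with 1 of the 8 called lower and 0 higher, beside the fall of Col18a1. For epidermis, 8 markers summed to 167019, 170379 and 166207 at E18.5, against 124438, 137479 and 134352 at E16.5. Of these 3 were called higher and 0 lower. Of 12 cartilage markers 3 were higher and 0 lower, and of 8 pericyte and smooth muscle markers 0 were higher and 1 lower. No bone, tendon or Schwann cell and nerve marker was called. The part of all these cells in the collagen differences was not tested.

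From E14.5 the fibroblast, endothelial and skeletal muscle sums differed more. Over all genes 37.1% were called higher and 20.8% lower in E16.5 against E14.5. Fibroblast markers summed to 68707 to 71775 at E16.5, against 37286 and 36622 at E14.5, with 4 of 8 called higher and 2 lower. Endothelial markers summed to 7076 to 8353 at E16.5, against 2643 and 2546 at E14.5, with 7 of 8 called higher and 1 lower. Skeletal muscle markers summed to 79945 to 89013 at E16.5, against 8673 and 16905 at E14.5, with 8 of 10 called higher, beside the rise of Col19a1 and the fall of Col25a1. Tendon markers summed to 872 to 948 at E16.5, against 4950 and 3137 at E14.5, with 2 of 6 called higher and 3 lower. How far these sums account for the collagen differences was not tested.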

How the data were processed

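Dorsal skin of wild-type embryos was profiled on 8 arrays (2 of E14.5, 3 of E16.5, 3 of E18.5). The deposited values are signal intensities on a linear scale for 45101 probesets. PLIER 2.0 and Affymetrix Expression Console 1.1 are named, without a role, per the submitters' processing notes; background correction and normalization: not given in the sources used here. Per the labels' protocols the targets were primed with random hexamers for a whole-transcript assay, whereas the array design is of the 3′ type, which leaves the target preparation uncertain. Of the probesets 34958 carried 1 symbol, 932 several and 9211 none, and 34945 remained after control probesets were left out. The probeset with the highest mean of log2(signal + 16) stood for its gene. All 40 symbols were found in a RefSeq table of mouse genes (GRCm38.p6).

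R 4.3.3 and limma 3.58.1 fitted 1 mean per stage to all 8 arrays (lmFit, eBayes with a variance trend), with Benjamini-Hochberg adjustment over 18193 genes and a threshold of 0.05. The probeset tests were adjusted over all 34945 probesets. No further normalization was applied, and the script was tested on simulated data. Where arrays were at or below background, a fold change was computed with those arrays set to their background and is given as a lower bound. Every member was eligible to be named, and from each related list the 2 called genes with the largest rise and the 2 with the largest fall in each interval. Members, lists and tests were chosen with earlier results of these data known. Alternatives tried were median centring, quantile normalization, pseudocounts of 1 and 64, only genes above background on 2 or more arrays, no variance trend, the mean of all probesets, only the stages compared, and each array left out. The number of arrays limits the precision.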

Additional observations from a re-analysis of the deposited data

How the results depend on the processing

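Few of the collagen calls held under every alternative. In E18.5 against E16.5 it was 0 of 6 higher and 0 of 1 lower, in E16.5 against E14.5 8 of 18 and 2 of 6, and in E18.5 against E14.5 8 of 23 and 1 of 5. Stages differ in the distribution of signals: in E16.5 against E14.5 the median change of all genes was 0.29, -0.04 after quantile normalization and -0.55 after median centring, and changes from E14.5 are therefore relative to the scaling chosen. In E18.5 against E16.5 it was 0.12, 0.03 and -0.05. All genes called higher and lower in E18.5 against E16.5 numbered 1325 and 1015, 1002 and 1022 after quantile normalization, and 698 and 1834 after median centring. In E16.5 against E14.5 they numbered 6744 and 3782, 4924 and 4899, and 3533 and 7546. The 2340 genes called in E18.5 against E16.5 became 987, 1005 and 758 without replicate 1, 2 and 3 of E16.5. No paired analysis was possible because the labels do not say what the number codes in the titles mean, and the replicate numbers used here only name arrays. The cause of each change below was not tested.

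For collagen genes in E18.5 against E16.5, 6 were higher and 1 lower. Quantile normalization gave 1 and 2, median centring 2 higher, no variance trend 3 and 0, and the mean of all probesets 3 higher; with an array left out the counts ran from 2 to 6 higher and 0 to 3 lower. Col1a2 was -0.11 after quantile normalization. In E16.5 against E14.5, 18 were higher and 6 lower, 10 and 15 after median centring, and 16 to 21 and 4 to 8 with an array left out. Median centring gave -0.47 for Col1a2, -0.30 for Col3a1, -0.15 for Col4a1, -0.70 for Col4a2, -0.34 for Col15a1, -0.073 for Col12a1, -0.084 for Col14a1, -0.34 for Col6a1 and -0.58 for Col6a2. The mean of all probesets gave -0.46 for Col1a1, -0.028 for Col3a1, 0.57 for Col4a5, -0.90 for Col22a1, 1.28 for Col8a1, 1.14 for Col26a1, 0.86 for P3h1, 0.98 for Sparc, 0.92 for Agrn and 1.12 for Nid1. With an array left out Col9a2 ran from -1.33 to 1.40, the lowest without the second E14.5 array.

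In E18.5 against E14.5, 23 were higher and 5 lower, 8 and 15 after median centring, 3 lower with the mean of all probesets, and 20 to 23 and 4 to 6 with an array left out. Col11a1 was -0.010 after quantile normalization. Median centring gave -0.30 for Col1a2, -0.078 for Col11a1, -0.51 for Col4a2, -0.0055 for Col4a3, -0.083 for Col15a1, -0.050 for Col18a1, -0.59 for Col6a1, -0.64 for Col6a2 and -0.97 for Col26a1. The mean of all probesets gave -0.68 for Col1a1, 1.23 for Col9a1, 0.58 for Col4a5 and 0.71 for Col8a1. In the difference between the intervals 6 were higher and 13 lower, 11 and 8 after median centring, and 4 to 7 and 10 to 15 with an array left out. Col3a1 was -0.87 after quantile normalization. Median centring gave 0.014 for Col1a1, 0.64 for Col1a2 and 0.090 for Col6a1, and the mean of all probesets 0.23 for Col1a1, 0.17 for Col5a2, -0.55 for Col4a5, -1.85 for Col8a1 and -1.72 for Col26a1.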
